A study of Mus musculus with 30 samples.

Results

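Prostaglandin E2 (PGE2) given during receptor stimulation of wild-type natural killer (NK) cells was compared with stimulation alone by ATAC-seq, a method that cuts and tags accessible chromatin with a transposase. The comparison rests on 8 of the study's 30 libraries, chosen by their labels: 4 of stimulated wild-type (WT) cells with PGE2 and 4 of stimulated WT cells without it. NK cells came from spleens of C57BL/6J mice and had been grown for 5 days with a low dose of IL-2 and with IL15:IL15Ra, a complex of the cytokine with its receptor chain. PGE2 was present at 100 ng/ml for 5 h. Both groups were given anti-NK1.1, which engages the activating receptor NK1.1, during 4 h that followed a first hour with or without PGE2. The same treatment was read in 2 further settings that share no library with this comparison. They were resting WT cells (4 untreated libraries and 3 with PGE2, numbered 2, 3 and 4) and stimulated cells of GzmbCre Ptger2-/- Ptger4fl/fl mice (KO, 4 libraries each without and with PGE2). The KO mice carried a Cre recombinase under a granzyme B promoter and the WT mice did not, so receptor loss and Cre cannot be told apart. All groups shared the cytokine culture, so none of them holds NK cells as they are in the spleen.

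PGE2 is a lipid mediator made by many inflamed and tumour tissues. Its receptors EP2 (Ptger2) and EP4 (Ptger4) couple to the stimulatory G protein and raise cyclic AMP (cAMP), which activates protein kinase A and transcription factors of the CREB family. In NK cells cAMP is known as a brake on cytotoxicity and cytokine release. NK1.1 signals through adaptors with ITAM motifs, and from there through calcium and NFAT, MAP kinases and AP-1, and NF-κB. ATAC-seq measures how open the DNA near a gene is and not how much of the gene's RNA is made, and in these bulk libraries fewer cells with an open site and less opening per cell cannot be told apart.

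Promoter sequences of 6 genes that carry the results below are shown first, because they sit inside peaks that changed in opposite directions. Accessibility fell at the promoters of the cytokine genes Ifng, Xcl1 and Tnf and of the cytokine signalling inhibitor Cish, and rose at those of the inhibitory receptor gene Tigit and the chemokine receptor gene Ccr2. Each line gives the 250 bases before the gene's start on the gene's own strand, 5′ to 3′, from RefSeq on GRCm38.p6. The windows are chr10:118440796-118441045 (+) for Ifng, chr1:164935523-164935772 (-) for Xcl1, chr9:107296409-107296658 (+) for Cish, chr17:35202008-35202257 (-) for Tnf, chr16:43664185-43664434 (-) for Tigit and chr9:124101933-124102182 (+) for Ccr2. Capitals mark matches, on either strand, to a short cAMP response element (TGACG, in Ifng and Cish), a STAT site (TTCNNNGAA, in Ifng), a T-box site (TCACACC, in Xcl1), a RUNX site (TGTGGTT, in Xcl1 and Tigit) or an NFAT core (GGAAAA, in Tnf, Tigit and Ccr2). A match is a string of letters and was not shown to be bound.
Ifng: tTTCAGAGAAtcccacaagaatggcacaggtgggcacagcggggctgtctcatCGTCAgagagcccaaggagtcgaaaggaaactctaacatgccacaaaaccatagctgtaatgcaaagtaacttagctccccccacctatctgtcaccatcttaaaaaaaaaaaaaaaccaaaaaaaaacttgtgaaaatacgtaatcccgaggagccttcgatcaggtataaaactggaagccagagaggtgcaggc
Xcl1: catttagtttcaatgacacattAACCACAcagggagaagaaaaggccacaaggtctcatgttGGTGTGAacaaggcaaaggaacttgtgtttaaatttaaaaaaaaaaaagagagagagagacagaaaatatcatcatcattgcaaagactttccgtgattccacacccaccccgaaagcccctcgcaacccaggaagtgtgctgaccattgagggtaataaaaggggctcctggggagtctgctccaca
Cish: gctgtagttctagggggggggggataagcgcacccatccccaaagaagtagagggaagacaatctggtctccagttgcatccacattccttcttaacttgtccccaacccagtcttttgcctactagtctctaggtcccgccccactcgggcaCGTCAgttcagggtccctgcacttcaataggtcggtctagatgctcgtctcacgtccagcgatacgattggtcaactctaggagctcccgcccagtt
Tnf: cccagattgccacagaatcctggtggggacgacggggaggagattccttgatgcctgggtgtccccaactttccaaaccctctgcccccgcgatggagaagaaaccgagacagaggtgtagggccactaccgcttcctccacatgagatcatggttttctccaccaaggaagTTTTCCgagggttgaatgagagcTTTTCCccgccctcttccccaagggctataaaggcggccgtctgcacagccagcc
Tigit: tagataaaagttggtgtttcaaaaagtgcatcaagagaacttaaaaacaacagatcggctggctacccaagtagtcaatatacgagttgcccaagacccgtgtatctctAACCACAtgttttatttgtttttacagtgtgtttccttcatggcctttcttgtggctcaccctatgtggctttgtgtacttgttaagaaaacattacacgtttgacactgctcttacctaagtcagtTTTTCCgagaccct
Ccr2: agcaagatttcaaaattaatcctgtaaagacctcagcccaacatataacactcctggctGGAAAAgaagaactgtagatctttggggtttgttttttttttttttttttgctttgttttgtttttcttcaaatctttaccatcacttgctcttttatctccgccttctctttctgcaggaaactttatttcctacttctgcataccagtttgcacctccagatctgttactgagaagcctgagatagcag

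The 8 libraries held 10575515 to 17802980 reads in peaks, and 1 read was worth 0.793 to 1.36 normalised counts, the deposited unit used for every level below. Of 38526 peaks, 38525 were tested after a filter on the mean (at least 10), and 2 of all values in the 8 libraries were 0. Replicates of a group correlated at 0.979 to 0.988 across peaks on the log2 scale. The first principal component of the 8 libraries held 67.6% of the variance, with the PGE2 libraries at 51.1 to 60.9 and the untreated ones at −58.6 to −46.7. The next component, with 7.8%, set replicates 1 and 2 of both groups (9.5 to 25) apart from replicates 3 and 4 (−20.8 to −16.1), and untreated replicate 2 stood apart on the third (−38.2). Without untreated replicate 2 limma called 7381 peaks more and 7535 less accessible, near the counts given below. Whether a replicate is its own animal or culture is not given in the labels. The p-values therefore refer to the spread among these libraries, and that spread may be technical.

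Markers of the labelled cell type were open. All 12 NK marker genes had a promoter peak, and the 17 promoter peaks summed to 12867 to 14848 normalised counts per untreated library and 11820 to 13999 per PGE2 library. Promoter peaks of B cell markers (Cr2 and Ebf1) summed to 87 to 120 and 85 to 103, with no peak at Cd79a, Cd79b or Ms4a1. T cell marker promoters (Bcl11b and Cd6) summed to 321 to 405 and 303 to 363, with no peak at Cd3g, Cd4, Cd8a, Cd8b1, Foxp3 or Themis. Myeloid promoters (Cd14, Flt3 and Itgax) summed to 877 to 954 and 927 to 1014, with no peak at Lyz2, S100a8 or S100a9, and the erythroid genes Alas2, Hba-a1, Hba-a2, Hbb-bs and Hbb-bt had no peak. Promoters of the innate lymphoid (ILC2 and ILC3) markers Areg, Gata3, Il17rb and Kit summed to 1733 to 1913 and 1866 to 2063, and the ranges of the groups overlapped there as well.

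PGE2 changed accessibility at 15619 peaks, 40.5% of those tested, by limma on log2(normalised count + 1) with a Benjamini-Hochberg adjusted p under 0.05 (called peaks). Accessibility rose at 7767 peaks (20.2%) and fell at 7852 (20.4%). The median size of a called difference was 0.63 on the log2 scale in both directions, which is below 2-fold, and the log2(count + 1) scale understates the change of low peaks. Differences of 2-fold or more were reached by 1281 rising and 2001 falling peaks, 4-fold by 38 and 158, and 8-fold by 0 and 5. The 4 PGE2 libraries did not overlap the 4 untreated ones at 6492 rising peaks (83.6%) and 6811 falling peaks (86.7%), against 39.4% of all peaks tested. In 95.6% of rising and 97.1% of falling peaks all 4 pairs of same-numbered libraries had the sign of the call. Among peaks not called, all 4 pairs had the sign of the difference in 29.9%. The calls came from these same 8 libraries, so neither the lack of overlap nor the shared sign is separate evidence.

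**Figure D1:**
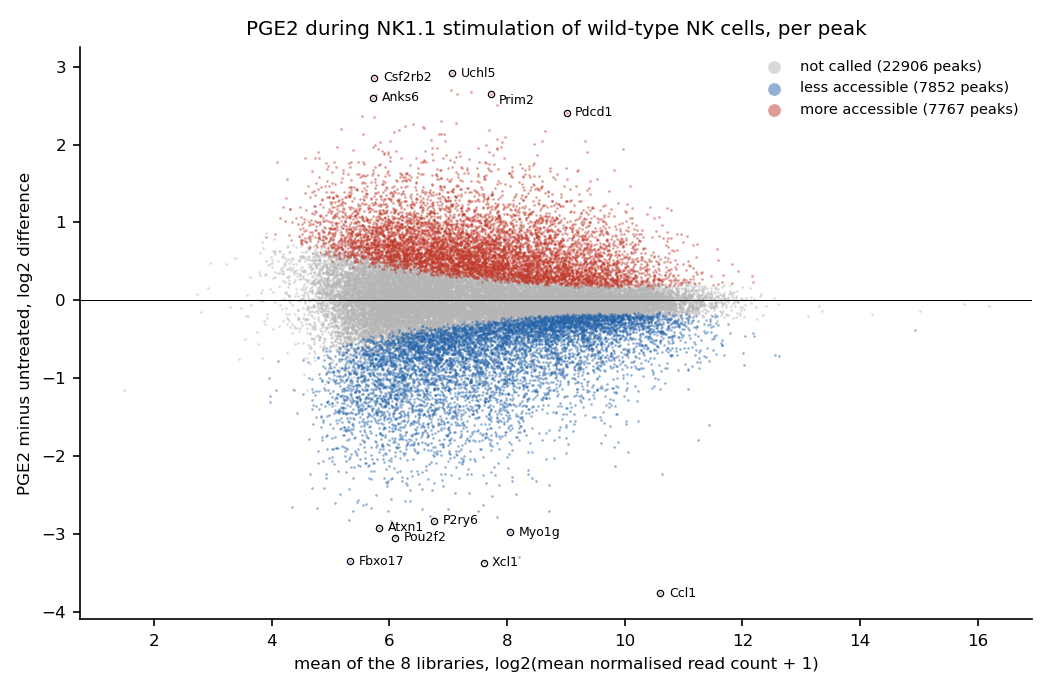
Log2 difference of PGE2 against untreated (vertical axis) by mean level of the 8 stimulated WT libraries (horizontal axis, log2 scale) for 38525 peaks, with called rises in red, called falls in blue and other peaks in grey. Rings mark 12 peaks named by the rule for large changes, and the falls reach −3.76 at Ccl1 while the rises end at 2.92 at Uchl5.

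Rising and falling peaks lay in different places. Promoters made up 11% of rising peaks, 30.6% of falling peaks and 31.3% of all peaks, while introns made up 45.9%, 32% and 33%. Read the other way, 855 of 12048 promoter peaks rose (7.1%) and 2401 fell (19.9%), whereas in introns 28.1% rose and 19.8% fell. The median distance to the nearest annotated start was 17730.5 bases for rising peaks, 10482 for falling peaks and 10777 for all, with chromosome 18 left out. Large changes of both signs were rarely at promoters, which made up 3.4% of the 2-fold rises and 8.4% of the 2-fold falls. The median level was 137 untreated and 221 with PGE2 at rising peaks and 255 and 149 at falling peaks, against 170.1 and 170.5 over all peaks, and the call itself sets part of this contrast. Neighbouring called peaks within 5000 bases moved the same way in 78.4% of 1832 pairs, and beyond 100000 bases in 57.8% of 434. Of 14886 genes given to peaks, 4190 had a rising peak, 4887 a falling one and 1458 both.

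Genes of secreted NK effectors lost accessibility. Of 90 peaks of 20 cytokine and chemokine genes, 62 fell (68.9%) and 3 rose (3.3%), with a median difference of −0.78 against −0.01 over all peaks tested. At their promoters 14 of 17 peaks fell and 0 rose, where 19.9% of all promoter peaks fell and 7.1% rose. The falling genes included chemokines that draw other leukocytes (Ccl3, Ccl4, Ccl5, Ccl1, Xcl1), macrophage-activating interferon gamma (Ifng), tumour necrosis factor (Tnf) and the myeloid growth factor GM-CSF (Csf2). The list was chosen with results of these libraries known and is not independent evidence of its direction.

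The Ifng promoter (chr10:118440476-118441519) read 897, 729, 824 and 797 in the untreated libraries 1 to 4 and 434, 448, 409 and 460 with PGE2. The lowest untreated library was above the highest PGE2 library, a difference of −0.89 ± 0.09 (SE, limma adjusted p = 1.13e-09). Of the 18 Ifng peaks 9 fell, by 0.22 to 1.80, and 2 rose. The deepest fall was at a distal peak 6.8 kb downstream (−1.80 ± 0.28), and peaks 54.3 and 33.7 kb upstream fell by 1.40 and 1.33. The rises were small, 0.49 at 36.4 kb upstream (52.2 ± 5.31 to 73.8 ± 6.20, SD, n = 4) and 0.40 at 45.9 kb downstream. Each rose in the full set but not without 1 library, with limma adjusted p of 0.0533 for the first without untreated replicate 3 and up to 0.054 for the other without PGE2 replicate 1 or untreated replicate 4. The falls of 0.22 and 0.30, at 5.5 kb upstream and 18 kb downstream, were likewise lost without 1 of several libraries, with limma adjusted p of up to 0.11 and 0.103.

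Xcl1 encodes lymphotactin, which recruits cross-presenting dendritic cells. Its promoter (chr1:164935274-164936361) read 1901, 1624, 1661 and 1534 untreated and 933, 859, 853 and 781 with PGE2, again without overlap (−0.97 ± 0.09, limma adjusted p = 1.48e-10). In all 10 of its 12 peaks fell, over a stretch from 57.4 kb upstream to 5.3 kb downstream of the promoter peak. The deepest fall lay 54.3 kb upstream (chr1:164989659-164990590), from 353 ± 37.2 to 33.4 ± 3.55 (−3.37 ± 0.27), while a peak 24.6 kb upstream differed by 0.15 (limma adjusted p = 0.309). The Xcl1 locus thus fell on both sides of a peak that was not called.

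The Ccl3 promoter (chr11:83646107-83649993) read 4922, 4018, 3820 and 3930 untreated and 1376, 1519, 1257 and 1313 with PGE2 (−1.61 ± 0.12, limma adjusted p = 5.83e-13). At the Ccl4 promoter (chr11:83662037-83663090) the values were 2177, 1671, 1623 and 1654 against 556, 646, 635 and 584 (−1.55 ± 0.11). Every peak of Ccl3 (5) and Ccl4 (3) fell, and the neighbouring Ccl5 fell at 3 of 7. These genes belong to a family of close copies in 1 cluster, so the assignment of a peak to 1 of them is uncertain. Ccl1 had the deepest fall of the comparison among the peaks named by rule, at an exon peak (chr11:82173321-82177520) that went from 2905 ± 1075 to 209 ± 53.2 (−3.76 ± 0.22), and 10 of its 11 peaks fell.

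Tnf, the inflammatory cytokine, fell at its promoter (chr17:35201325-35202343) from 540, 365, 365 and 316 to 146, 134, 88.7 and 144 (−1.62 ± 0.17, limma adjusted p = 5.22e-10). Untreated replicate 1 was the highest there, and the groups did not overlap. The Csf2 promoter (chr11:54248891-54250249) read 852, 636, 797 and 801 untreated and 500, 434, 435 and 435 with PGE2 (−0.77 ± 0.10). Il10 encodes an anti-inflammatory cytokine, and of its 3 peaks 1 rose and 1 fell. The exon peak of Il10 (chr1:131022330-131023378) rose from 139, 172, 163 and 175 to 261, 285, 266 and 294 (0.77 ± 0.13, limma adjusted p = 6.56e-06). The fall, at a distal Il10 peak outside the naming rule that was added after its values were seen, was larger, from 92.4 ± 13.9 to 24.4 ± 6.45 (−1.90 ± 0.31, limma adjusted p = 4.4e-06).

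**Figure D2:**
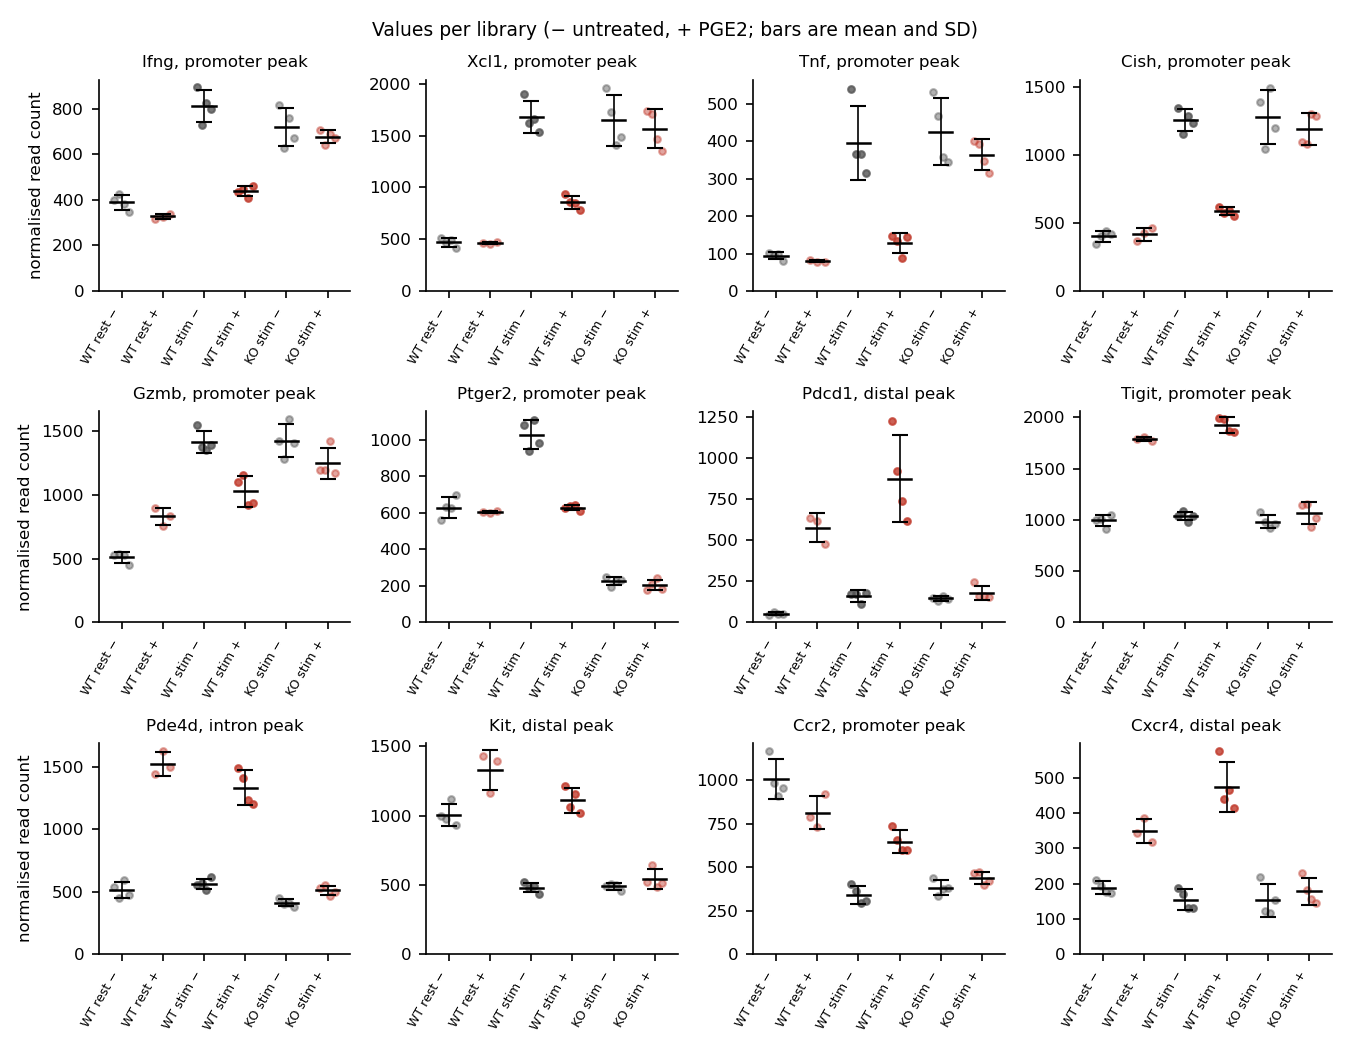
Normalised read counts (vertical axes, from 0) of 12 peaks in every library of resting WT, stimulated WT and stimulated KO cells, without (grey) and with PGE2 (red), with bars for the mean and SD of 3 or 4 libraries. In stimulated WT cells the points with PGE2 lie below all untreated points at Ifng, Xcl1, Tnf, Cish, Gzmb and Ptger2 and above them at the other 6 peaks.

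Cytotoxic genes moved in both directions. Of 108 peaks of granule and death ligand genes 43 fell (39.8%) and 28 rose (25.9%), with a median of −0.12. At promoters 10 of 23 fell and 3 rose, where 19.9% of all promoter peaks fell and 7.1% rose. Perforin (Prf1), which forms the pore in the target cell, fell at 4 of 5 peaks. Its promoter (chr10:61296656-61298276) read 2062, 1681, 1672 and 1806 untreated and 1264, 1206, 1152 and 1193 with PGE2 (−0.58 ± 0.07, limma adjusted p = 4.03e-08). Granzyme B (Gzmb), the protease delivered through that pore, fell at 7 of 9 peaks, with assignment uncertain among similar granzyme genes. The promoter peak of Gzmb (chr14:56261712-56262972) read 1544, 1373, 1348 and 1393 against 1097, 1158, 919 and 934 (−0.47 ± 0.09), a smaller fall than at its exon peak 2.5 kb downstream. That exon peak (chr14:56259415-56260222) went from 319, 233, 211 and 215 to 72.6, 66.9, 44.8 and 51.4 (−2.04 ± 0.21).

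The death ligand gene Fasl showed both signs within 1 locus, with 9 rising and 6 falling peaks of 21. A distal peak (chr1:161765897-161768090) rose from 930, 1037, 1021 and 1002 to 1710, 1613, 1580 and 1453 (0.67 ± 0.08, limma adjusted p = 3.23e-08). Another (chr1:161757880-161758600) fell from 109, 132, 132 and 142 to 30.8, 22.3, 16.3 and 31.8 (−2.34 ± 0.44, limma adjusted p = 4.4e-05). Lyst, which encodes a regulator of lytic granule size, rose at a distal peak from 178 ± 21.3 to 407 ± 68.6 (1.18 ± 0.11) and at 4 of its 8 peaks in all. Rab27a, needed to dock granules, fell at an intron peak from 304 ± 48.9 to 110.5 ± 15.0 (−1.44 ± 0.12), and all 5 peaks of Serpinb9, the granzyme B inhibitor in a family of similar genes, fell.

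Surface receptor genes had about as many rises as falls. Activating receptor and ITAM genes were near the background, with 40 rising (20.6%) and 36 falling (18.6%) peaks of 194, while inhibitory receptor genes had 21 of each among 71 (29.6%), above the background in both directions. The gene of the stimulated receptor itself, Klrb1c, rose at a distal peak (chr6:128769544-128771262) from 162, 228, 155 and 150 to 407, 357, 375 and 352 (1.11 ± 0.14, limma adjusted p = 2.8e-08), and was called at 2 other peaks of its 7, with 1 rise and 1 fall. Fyn, a Src family kinase of receptor signalling, had 14 rising and 6 falling peaks of 32. An intron peak of Fyn rose by 0.87 ± 0.10 (412 ± 10.4 to 757 ± 62.1) and another in the same gene fell by 1.32 (761 ± 42.2 to 305 ± 11.1).

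Pdcd1, the gene of the inhibitory receptor PD-1, opened upstream and closed at its promoter. The peak 21.2 kb upstream (chr1:94074313-94075538) read 176, 175, 111 and 182 untreated and 1223, 918, 736 and 614 with PGE2 (2.41 ± 0.22, limma adjusted p = 3.82e-11). The lowest PGE2 library was thus far above the highest untreated one, and the PGE2 libraries spread widely among themselves. Of the other Pdcd1 peaks those 38.3, 25.5 and 2.4 kb upstream and 5.5 kb downstream rose by 0.47 to 0.93, the one at 25.5 kb not without PGE2 replicate 1 (limma adjusted p = 0.0514). The promoter peak (chr1:94053227-94054175) fell from 144, 104, 145 and 142 to 91.5, 81.4, 77.5 and 58.9 (−0.79 ± 0.24, limma adjusted p = 0.00782).

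Tigit, another inhibitory receptor gene, rose at the promoter itself (chr16:43663747-43665296), from 1039, 1083, 985 and 1042 to 1997, 1989, 1863 and 1856 (0.89 ± 0.07, limma adjusted p = 3.19e-12). The spread within each group was small against the difference. A peak 26 kb upstream of it rose by 0.78 and one 37.8 kb upstream fell by 0.50, while 5 of the 9 Tigit peaks were not called. A rise of 0.55 in a Tigit intron was lost without untreated replicate 1 or any of 4 other libraries (limma adjusted p up to 0.121). Inhibitory receptors did not move as one: Ctla4 had 3 rising peaks of 5, whereas Cd69, an early activation marker on the same list, fell at 4 of 4, Havcr2 (TIM-3) at 3 of 6 and Lag3 at 2 of 4, each with 0 rises.

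**Figure D3:**
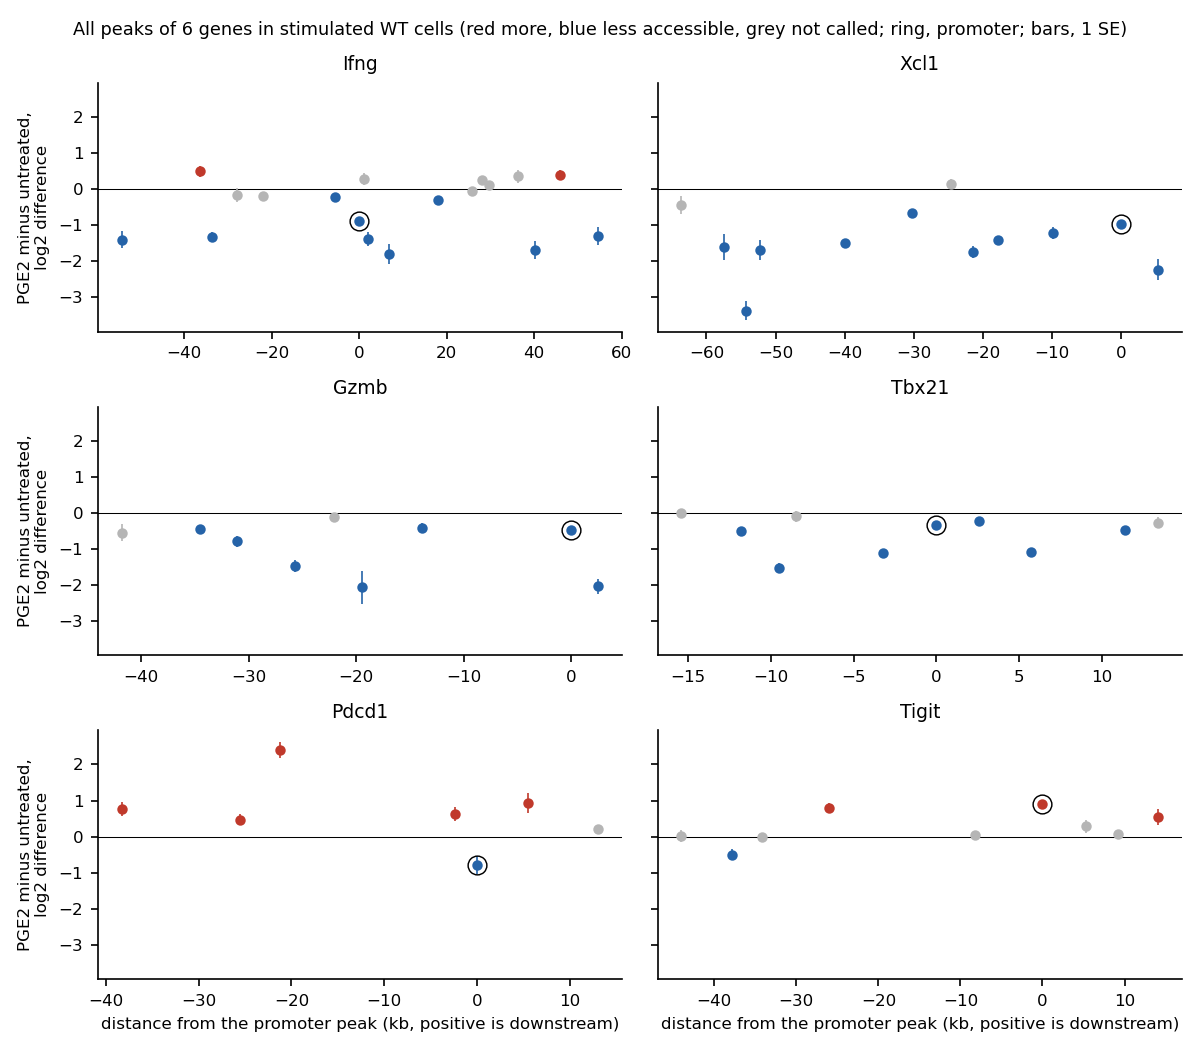
Log2 difference of PGE2 against untreated in stimulated WT cells (vertical axes, bars 1 SE) for every peak of 6 genes by distance from the promoter peak in kb (horizontal axes, positive downstream), with rises in red, falls in blue, uncalled peaks in grey and the promoter ringed. Falls run through the loci of Ifng, Xcl1, Gzmb and Tbx21, while the Pdcd1 peak 21.2 kb upstream stands at 2.41 above a promoter at −0.79.

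Co-stimulatory genes of the TNF and TNF receptor family fell more often than they rose, with 35 falls (47.9%) and 17 rises (23.3%) among 73 peaks of a list that also held Cd28 and Icos. The Tnfsf14 promoter (chr17:57193598-57194947), of the ligand LIGHT, read 1561, 1229, 1485 and 1452 untreated and 710, 635, 627 and 596 with PGE2 (−1.15 ± 0.08, limma adjusted p = 2.06e-13). All 5 peaks of Tnfsf14 and all 5 of Tnfrsf9, the 4-1BB receptor, fell, as did 9 of 10 of Tnfsf8, the CD30 ligand. The rises came from other members. Icos, an inducible co-stimulator of the CD28 family, rose at 6 of 7 peaks, among them a distal one (chr1:61045886-61046916) that went from 99.2, 108, 120 and 104 to 393, 387, 344 and 278 (1.68 ± 0.15). Cd28 rose at 6 of 9, and a distal peak of Tnfsf11, the cytokine RANKL, rose from 41.3 ± 8.49 to 136 ± 20.1.

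Among genes of the transcription factors that NK1.1 engages, falls outnumbered rises, as they also did among housekeeping genes (34.1% falls and 9.1% rises). NFAT, calcineurin, EGR and NR4A genes had 43 falling (37.7%) and 19 rising (16.7%) peaks of 114. At promoters 13 of 23 fell and 0 rose, where 19.9% of all promoter peaks fell and 7.1% rose. Nr4a1, an immediate early nuclear receptor induced by antigen receptor signals, fell at 5 of 6 peaks. Its promoter (chr15:101253274-101254712) read 398, 314, 415 and 403 untreated and 192, 135, 171 and 184 with PGE2 (−1.16 ± 0.16, limma adjusted p = 1.39e-07). All 4 peaks of its relative Nr4a2 fell too, and 3 of 5 of Egr2, a calcium-dependent factor. Nfatc1, a calcium-regulated factor, changed both ways, with 4 rises and 7 falls of 22 peaks, including an intron peak that rose from 211.5 ± 26.4 to 469 ± 76.1 and a distal one that fell from 213 ± 16.3 to 79.8 ± 9.03.

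AP-1 and BATF genes had 41 falling (36.9%) and 22 rising (19.8%) peaks of 111. Junb, an AP-1 subunit, fell at a distal peak (chr8:84982247-84982963) from 957, 950, 748 and 761 to 311, 290, 286 and 271 (−1.55 ± 0.10, limma adjusted p = 7.6e-15), and Fosb, another subunit, at an exon peak from 402.5 ± 45.3 to 126 ± 14.4. Bach2, a repressor that competes with AP-1, had 10 rising and 10 falling peaks of 36. An intron peak of Bach2 (chr4:32342857-32344521) rose from 745, 652, 665 and 816 to 1762, 1444, 1473 and 1334 (1.06 ± 0.08). Fosl2, an AP-1 subunit, had 3 rising and 0 falling peaks of 5.

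NF-κB genes fell more often than they rose, with 47 falls (52.8%) and 10 rises (11.2%) among 89 peaks and a median of −0.44. Of their 17 promoter peaks 11 were lower and 0 higher, against 19.9% and 7.1% of all promoter peaks. Nfkbie, an inhibitor that holds NF-κB in the cytoplasm, fell at an exon peak (chr17:45556904-45558628) from 1253, 1191, 1122 and 1051 to 428, 343, 396 and 427 (−1.54 ± 0.10, limma adjusted p = 1.68e-14). Traf1, a signalling adaptor of TNF receptors, fell at 7 of 8 peaks, and Rel, a subunit, at 4 of 6. Tnfaip3, which encodes the NF-κB brake A20, fell at 7 of 16 peaks but rose at 1. That distal peak of Tnfaip3 (chr10:19061564-19063350) went from 1056, 984, 976 and 1073 to 2560, 2395, 2263 and 2092 (1.18 ± 0.09).

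**Figure D4:**
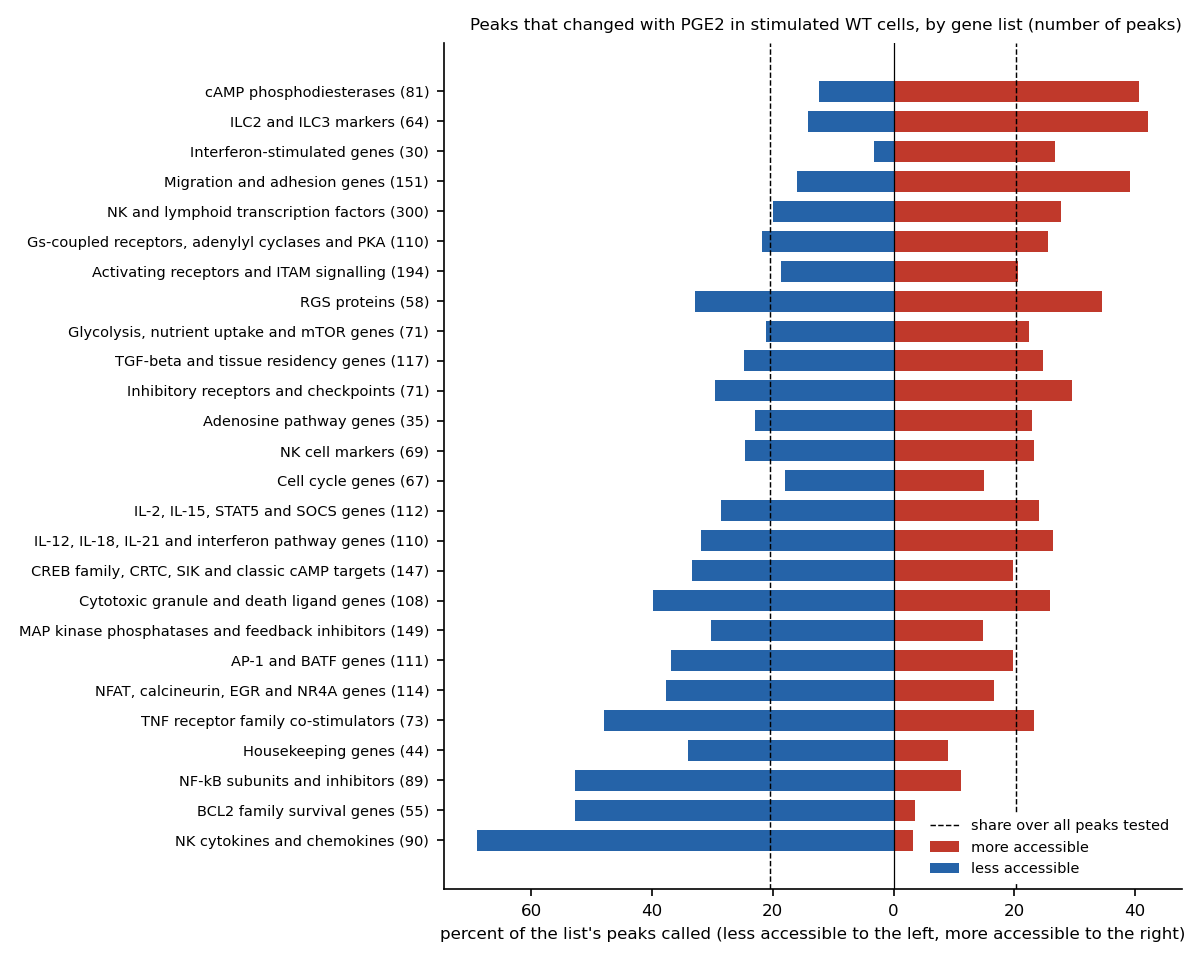
Percent of each gene list's peaks that were less accessible (blue, to the left) or more accessible (red, to the right) with PGE2 in stimulated WT cells, for the 26 lists with at least 30 peaks (number in brackets), and dashed lines for the shares over all peaks tested (20.4% and 20.2%). Cytokine and chemokine genes stand at 68.9% less accessible, and the ILC2 and ILC3 markers and cAMP phosphodiesterases at 42.2% and 40.7% more accessible.

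Genes that transmit or restrain common gamma chain cytokines split by member. The list of IL-2, IL-15, STAT5 and SOCS genes had 32 falls (28.6%) and 27 rises (24.1%) among 112 peaks. At promoters 8 of 19 fell and 0 rose, where 19.9% of all promoter peaks fell and only 7.1% rose. Cish, a STAT5-induced inhibitor of IL-15 signalling, fell at all 5 peaks, and the deepest, 6.9 kb downstream of the promoter, fell by 2.31. The Cish promoter (chr9:107295503-107297391) read 1343, 1152, 1282 and 1235 untreated and 618, 575, 595 and 552 with PGE2 (limma adjusted p = 3.43e-11). All 5 peaks of Il2ra, the high-affinity IL-2 receptor chain, fell as well. Rises were seen at the kinase gene Jak1, with 12 of 22 peaks up and 0 down, and at Stat5b, the transcription factor, with 4 of 7. An intron peak of Jak1 (chr4:101185018-101185774) rose from 85.0, 136, 84.8 and 68.5 to 280, 260, 248 and 270 (1.54 ± 0.17, limma adjusted p = 2.85e-09).

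In the IL-12, IL-18, IL-21 and interferon list 35 peaks fell (31.8%) and 29 rose (26.4%) of 110. Il21r, the IL-21 receptor, fell at 6 of 8 peaks and Irf4, an activation-induced factor, at 8 of 10, while Ifngr1, a chain of the interferon gamma receptor, rose at 6 of 8. A distal peak of Ifngr1 rose from 837 ± 28.2 to 1806 ± 181. An exon peak of Tyk2, the kinase of the IL-12 receptor, fell from 749.9 ± 33.5 to 288 ± 14.5 (−1.38 ± 0.09). Interferon-stimulated genes had 8 rises and 1 fall among 30 peaks, 6 of the rises at 18 promoters, where 7.1% of all promoter peaks rose. These rises were small: the Ifit3 promoter, of an antiviral protein in a family of close copies, rose by 0.47 and that of Irf7, the interferon amplifier, by 0.28.

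Peaks of several genes in the pathway through which PGE2 itself acts were called, though the list as a whole was near the background. The promoter of Ptger2, which encodes EP2 (chr14:44988181-44990885), read 1082, 941, 1109 and 982 untreated and 627, 637, 642 and 609 with PGE2 (−0.71 ± 0.11, limma adjusted p = 1.4e-06). At Ptger4, which encodes EP4, the promoter fell by 0.30, a call lost without PGE2 replicate 3 among other libraries (limma adjusted p up to 0.0781), and 1 distal peak fell from 41.4 ± 7.57 by 0.91. Adora2a encodes an adenosine receptor that also raises cAMP. Its promoter (chr10:75316179-75318865) fell from 3507, 3396, 3011 and 3077 to 2006, 2145, 1901 and 1857 (−0.72 ± 0.09). As a group, Gs-coupled receptor, adenylyl cyclase and protein kinase A genes were near the background, with 28 rises (25.5%) and 24 falls (21.8%) among 110 peaks. Within it, the kinase subunit gene Prkacb rose at 4 of 5 peaks, the cyclase gene Adcy7 at 6 of 9, and the regulatory subunit gene Prkar1b fell at 8 of 9.

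Among genes of phosphodiesterases, the enzymes that break cAMP down, rises outnumbered falls. Of 81 peaks 33 rose (40.7%) and 10 fell (12.3%), with a median of 0.29. Pde4d, which encodes a cAMP-specific family member, rose at 12 of 23 peaks and Pde4b, its close relative, at 8 of 18. An intron peak of Pde4d (chr13:109821677-109823366) read 549.5, 568, 514 and 613 untreated and 1490, 1411, 1238 and 1200 with PGE2 (limma adjusted p = 5.71e-14). Pde4a went the other way, with 3 falls and 0 rises among 7 peaks, including a distal peak (chr9:21160669-21161966) that fell from 1361, 1328, 1231 and 1189 to 577, 528, 580 and 556 (−1.19 ± 0.10). Phosphodiesterase members of the same subfamily thus differed in sign.

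CREB family members, their coactivators and classic cAMP targets did not rise as a list: 49 of 147 peaks fell (33.3%) and 29 rose (19.7%). The falls came in part from Nr4a1, Nr4a2, Nr4a3, Bcl2 and Rgs1, which other lists hold too. Crem, a cAMP-induced repressor, had 1 rising peak of 2 (123 ± 17.9 to 166.5 ± 18.5, 0.44 ± 0.12, limma adjusted p = 0.0047), and the groups overlapped. Sik1, a kinase induced by CREB, rose at 3 of 11 peaks with 0 falls, one of them from 167 ± 11.1 to 301 ± 23.2. Crtc3, a CREB coactivator, rose at a distal peak by 1.05 ± 0.14. Nt5e, the ectonucleotidase CD73 that makes adenosine, rose at 4 of 7 peaks, among them a distal peak from 39.9 ± 8.23 to 152 ± 24.5 (1.91 ± 0.24). RGS genes, inhibitors of G protein signalling, had 20 rises and 19 falls among 58 peaks. Rgs2 rose at 5 of 8 with 0 falls, Rgs16 fell at 2 of 2 and Rgs1 fell at 10 of 16 and rose at 3.

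Transcription factor genes of NK and other lymphoid cells had 83 rises (27.7%) and 60 falls (20%) among 300 peaks. Their 29 promoter peaks had 0 rises and 3 falls, where 7.1% of all promoter peaks rose and 19.9% fell. Tbx21, which encodes the NK and type 1 lineage factor T-bet, fell at 7 of 10 peaks with 0 rises. Its deepest fall was 9.5 kb upstream (chr11:97124474-97125284), from 398, 339, 330.5 and 304.5 to 148, 110, 90.7 and 124 (−1.54 ± 0.14, limma adjusted p = 3.58e-11). The fall of 0.24 in an intron of Tbx21 was lost without PGE2 replicate 1 (limma adjusted p = 0.074). By contrast 0 of 3 peaks of Eomes, the other T-box factor of NK cells, were called. Among factors of early lymphocytes, Lef1 rose at 8 of 11 peaks and Tcf7, its relative, at 5 of 9 with 0 falls. The RUNX factors of lymphoid development changed both ways: Runx3 rose at 8 and fell at 2 of 24 peaks, Runx1 at 11 and 7 of 36, and Runx2 at 6 and 6 of 20.

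Genes that mark ILC2 and ILC3 cells had 27 rises (42.2%) and 9 falls (14.1%) among 64 peaks, with a median of 0.21. Most of the rises lay at 3 genes. Kit, a receptor of progenitors and ILCs, rose at 8 of 10 peaks, Rora, a nuclear receptor, at 8 of 15, and Gata3, a factor shared by ILCs, T cells and NK precursors, at 7 of 19. A distal peak of Kit (chr5:75779623-75781564) read 517, 477, 492 and 434 untreated and 1216, 1060, 1152 and 1016 with PGE2 (1.21 ± 0.09, limma adjusted p = 8.35e-14). Gata3 also fell at 4 peaks, one of them (chr2:9615885-9617080) from 186, 136, 142 and 191 to 30.8, 43.5, 41.8 and 33.7 (−2.10 ± 0.21). Summed promoter levels of the same marker list overlapped between the groups, as given above, though 1 of the 4 promoter peaks rose. Of the 12 marker genes, 11 had a peak. Whether a change in cell make-up took part was not tested.

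TGF-β and tissue residency genes were balanced, with 29 rises and 29 falls among 117 peaks (24.8% each). Itga1, the integrin CD49a of tissue-resident NK cells, rose at 6 of 8 peaks with 0 falls, and Tgfbr2, a TGF-β receptor, at 3 of 12 with 3 falls. Migration and adhesion genes, in turn, had 59 rises (39.1%) and 24 falls (15.9%) among 151 peaks. Cxcr4, the chemokine receptor that retains cells in bone marrow, rose at 13 of 17 peaks. One of them (chr1:128704760-128705831) read 188, 169, 132 and 129 untreated and 576, 441, 466 and 415 with PGE2 (1.62 ± 0.15, limma adjusted p = 1.08e-10). Ccr2, a receptor for exit into blood, rose at 3 of 3 peaks. The Ccr2 promoter (chr9:124101885-124104228) went from 404, 360.5, 293 and 308 to 736, 655, 598 and 598 (0.93 ± 0.11, limma adjusted p = 7.95e-09). S1pr1, an egress receptor, rose at 7 of 15 peaks with 0 falls. Against these, Cx3cr1, a receptor of mature NK cells, fell at 5 of 9 peaks with 0 rises, and the single peak of Icam1, an adhesion ligand, fell from 1190 ± 79.3 to 590.1 ± 65.2.

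Survival genes of the BCL2 family had 29 falls (52.7%) and 2 rises (3.6%) among 55 peaks. Of their 13 promoter peaks 6 fell, where 19.9% of all promoter peaks did. Both survival-promoting and death-promoting members were among them: Bcl2l1 (BCL-XL) fell at 5 of 5 peaks, Mcl1 at 3 of 4 and Bcl2 at 11 of 20, all inhibitors of apoptosis, and Pmaip1 (NOXA), which promotes it, at 3 of 3. An intron peak of Bcl2l1 (chr2:152825190-152826273) read 378, 329, 469 and 285 untreated and 87.5, 98.2, 110.1 and 86.9 with PGE2 (−1.90 ± 0.16, limma adjusted p = 9.09e-12). Of the rises, the one in an intron of Bcl2 (35.3 ± 8.64 to 56.8 ± 15.3) was lost without PGE2 replicate 1 (limma adjusted p = 0.0612). Morrbid, a long non-coding RNA gene next to the death-promoting Bcl2l11, had 16 falls and 6 rises among 34 peaks. One intron peak of Morrbid (chr2:128294467-128296127) rose from 533, 439, 461 and 495 to 1267, 1172, 1107 and 991 (1.23 ± 0.10). Another (chr2:128389789-128390894) fell from 443, 411, 453 and 449 to 138, 153, 147 and 147 (−1.58 ± 0.11).

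The remaining lists held feedback, metabolic, cell cycle and reference genes. MAP kinase phosphatase and feedback inhibitor genes had 45 falls (30.2%) and 22 rises (14.8%) among 149 peaks, with Spry1, a Ras pathway inhibitor, lower at 3 of 3 and Cblb, a ubiquitin ligase that restrains activation, higher at 7 of 18. Glycolysis, nutrient and mTOR genes were near the background (16 rises and 15 falls of 71), and 8 of the rises were at Rptor, the RAPTOR subunit of mTORC1. Cell cycle genes had 10 rises and 12 falls of 67, with 10 of the falls at the kinase gene Cdk6. Housekeeping genes had 15 falls (34.1%) and 4 rises (9.1%) of 44, so a list picked for steady expression also changed in accessibility. The adenosine list had 8 of each among 35. Of 69 NK marker peaks 16 rose and 17 fell. Markers of other cells gave 2 rises and 2 falls of 12 (B cell), 3 and 3 of 14 (T cell), 0 and 2 of 10 (myeloid) and 0 and 1 of 4 (erythroid).

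Across the whole table, the largest rises named by the rule included distal and intron peaks and an exon peak of Anks6. Uchl5, a proteasome-bound deubiquitinase, had the largest, at a distal peak (chr1:143853538-143854505) that read 25.3, 42.0, 29.3 and 26.0 untreated and 264, 260, 181 and 237 with PGE2 (2.92 ± 0.24, limma adjusted p = 2.73e-12). An intron of Csf2rb2, which encodes an IL-3 receptor chain, followed (13.4 ± 6.94 to 91.9 ± 14.5), then peaks of Zfp169, a zinc finger gene, Rnf125, a ubiquitin ligase, Prim2, a DNA primase subunit, and Rptor, at 2.64 to 2.70. After Ccl1 and Xcl1, the deepest falls were at a distal peak of Fbxo17, an F-box protein (72.3 ± 13.1 to 6.30 ± 1.83), and in an intron of Pou2f2, the octamer factor OCT2 (120.5 ± 29.0 to 14.5 ± 6.34). Myo1g, a haematopoietic myosin, fell at its promoter (chr11:6522788-6523750) from 554, 422, 472 and 429 to 71.6, 37.9, 55.0 and 77.6 (−2.98 ± 0.23). A distal peak of Mir146, the host of a microRNA that dampens NF-κB signalling, fell from 391.7 ± 46.3 to 58.4 ± 20.4.

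Some genes changed at most of their peaks. Cables1, a cell cycle adaptor, rose at 16 of 16, Hdac4, a histone deacetylase that protein kinase A regulates, at 14 of 16, and Cxcr4 at 13 of 17. In the other direction Hivep3, a zinc finger factor, fell at 19 of 28 with 0 rises, Bcor, a corepressor, at 17 of 23, and Rbpj, the nuclear effector of Notch, at 15 of 21, also with 0 rises. A Cables1 intron peak rose from 165 ± 32.4 to 498 ± 58.7 (1.61 ± 0.12), a Hivep3 intron peak fell from 330.1 ± 42.9 to 52.4 ± 7.73 (−2.63 ± 0.23) and an Rbpj distal peak from 718.5 ± 70.6 to 226 ± 25.8 (−1.66 ± 0.15).

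In stimulated KO cells the same dose changed almost nothing that could be called. With limma, 1 peak of 38525 passed (0.0026%), in an intron of Prim2 (chr1:33578273-33579139), which went from 42.3 ± 4.08 to 87.4 ± 27.3 (0.98 ± 0.17, limma adjusted p = 0.0381), against 58.3 ± 15.0 to 362 ± 22.1 in WT (2.65 ± 0.17). That call was lost when any of 6 of the 8 KO libraries was left out and in edgeR, which called 0, while DESeq2 called 1, and 1634 peaks had an unadjusted p under 0.05. Without KO PGE2 replicate 3 limma called 4. Tested directly, WT and KO differed in their response at 3838 of the 7767 rising peaks (49.4%) and 3728 of the 7852 falling peaks (47.5%), where 10.2% of all peaks tested were called more positive in WT and 9.8% more negative. The rising and falling peaks were chosen by the stimulated WT values that also enter this difference, so the choice itself sets part of the excess. A weak tendency of the same sign was seen in the KO means, and its source was not tested. Among rising peaks of WT cells the KO mean was higher with PGE2 at 71.5% (median 0.08), and among falling peaks at 22.7% (median −0.08), against 47.3% and −0.01 over all peaks. Across peaks, which are not independent and share library depth, the differences in stimulated WT and KO correlated at 0.38. The same correlation was 0.26 between stimulated and resting WT, and 0.01 between resting WT and stimulated KO.

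Of the 39 peaks given library by library, picked after their values were seen, 37 had a called difference between the genotypes, against 20% of all peaks tested. Among the 37 was the promoter of Ptger2, a gene the KO mice lack. It read 226 ± 21.7 untreated and 204 ± 28.6 with PGE2 in KO cells, against 1028 ± 80.0 and 629 ± 14.4 in WT. At this peak the altered allele and a missing response cannot be told apart. The Ifng promoter was 718 ± 83.6 untreated and 677 ± 29.2 with PGE2 in KO cells (−0.08 ± 0.09), a difference of −0.81 from WT (limma adjusted p = 2.45e-05). The Pdcd1 peak 21.2 kb upstream was 146 ± 13.5 and 179 ± 43.0 in the KO, a difference of 2.14 (limma adjusted p = 3.71e-06), and the Tigit promoter was 984 ± 66.2 and 1065 ± 105, a difference of 0.78 (limma adjusted p = 7.46e-07). The exceptions were the promoters of Gzmb, at −0.27 ± 0.12 (limma adjusted p = 0.117), and Pdcd1, at −0.70 ± 0.34 (limma adjusted p = 0.153). In KO cells the Gzmb promoter read 1424 ± 130 and 1246 ± 120, and the Pdcd1 promoter 149 ± 12.4 and 140 ± 9.91. With a block for the replicate number both were called, at a limma adjusted p of 0.0424 for Gzmb and 0.0108 for Pdcd1, and the Pdcd1 promoter was called in edgeR too (adjusted p = 0.0442).

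**Figure D5:**
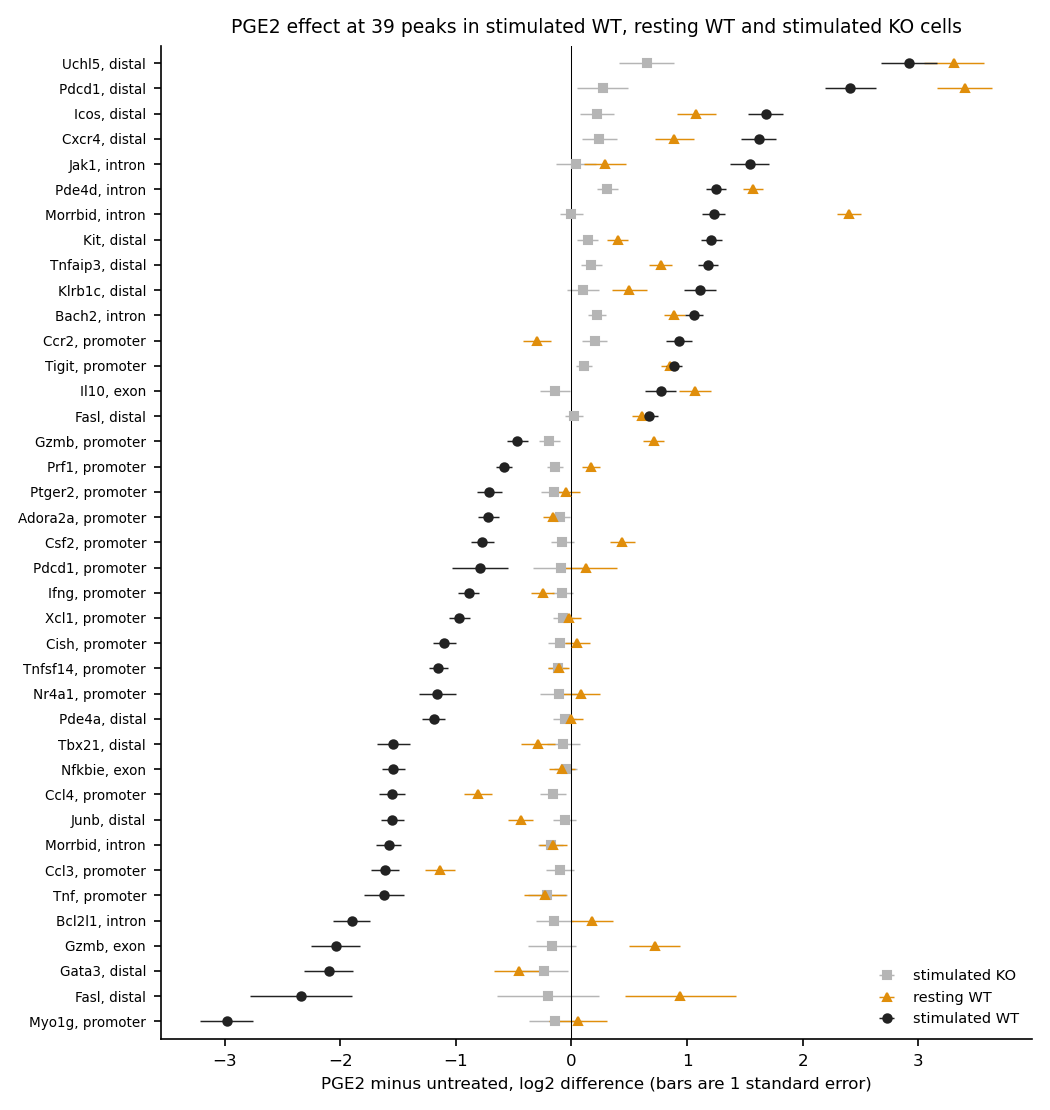
Log2 difference of PGE2 against untreated (horizontal axis, bars 1 SE) at 39 peaks in stimulated WT (circles), resting WT (triangles) and stimulated KO cells (squares), ordered by the value in stimulated WT. KO values stay between −0.24 and 0.65, and of these chosen peaks 13 of the 15 rising but 3 of the 24 falling ones were called in the same direction in resting WT, against 27.4% and 7% of all rising and falling peaks.

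PGE2 without stimulation left WT cells with another pattern. At rest 4186 peaks rose (10.9%) and 1554 fell (4.03%), so rises made up 72.9% of the calls, or 60.7% when each library was centred on its own median, against 49.7% in stimulated cells. The 2 lists shared rises more than falls. Of the peaks that rose in stimulated cells 27.4% also rose at rest, and of those that fell 7% also fell at rest. Read from the resting lists, 50.9% of resting rises rose in stimulated cells and 11.9% fell there, while 35.4% of resting falls fell and 12.7% rose. In all, 3376 peaks were called in both states, 2682 in the same direction (79.4%), 497 up at rest and down with stimulation (14.7%) and 197 the reverse (5.8%). The resting comparison had 3 PGE2 libraries, and its falls numbered 826 without PGE2 replicate 3, so counts of shared falls rest on few libraries.

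The difference between the states was tested peak by peak. It was called at 3307 of the rising peaks (42.6%) as more positive with stimulation, where 10.6% of all peaks were, and at 4276 of the falling peaks (54.5%) as more negative, where 14.7% were. Here too the stimulated values that chose the rising and falling peaks enter the difference, and the choice sets part of the excess. The cytokine and chemokine list had 50 of 90 peaks more negative with stimulation and 1 more positive, the NF-κB list 45 of 89 and 3, and the BCL2 list 23 of 55 and 0. At the Xcl1 promoter resting cells read 469 ± 43.6 untreated and 461 ± 7.76 with PGE2 (−0.02), a difference between the states of −0.95 (limma adjusted p = 3.24e-06). The Cish promoter read 402 ± 39.3 and 416 ± 48.1 at rest (0.05, difference −1.14), and the Nr4a1 promoter 96.7 ± 15.7 and 102.5 ± 22.5 (0.08, difference −1.24). In stimulated untreated cells these promoters stood higher, at 1680, 1253 and 382.

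A few loci departed from this. The Ccl3 promoter fell by 1.14 at rest as well (1227 ± 106 to 557 ± 46.7), and the difference between the states, −0.47, lay at the threshold: the limma adjusted p was 0.0541, but 0.0472 with a pseudocount of 8 and 0.00305 with only the groups compared. The Tigit promoter rose alike in both, by 0.85 at rest (995 ± 56.2 to 1790 ± 21.8), with a difference of 0.04 ± 0.11 (limma adjusted p = 0.811). At Pdcd1 the upstream peak rose by 3.40 ± 0.24 at rest from a lower start (53.6 ± 8.49 to 575 ± 87.7), and with stimulation it ended higher, at 873 ± 265. Its difference of −0.99 ± 0.32 (limma adjusted p = 0.0215) was lost without PGE2 replicate 4 of stimulated cells among other settings. The Morrbid peak that rose went from 179 ± 9.45 to 948 ± 51.4 at rest, a larger rise than the 1.23 with stimulation (difference −1.17, limma adjusted p = 1.6e-07).

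Signs were opposite at the promoters of Csf2 and Gzmb. The Csf2 promoter rose at rest from 196, 193, 212 and 259 to 288, 279 and 307 (0.44 ± 0.11, limma adjusted p = 0.00335) and fell with stimulation, a difference of −1.21 ± 0.15 (limma adjusted p = 1.78e-07). The Gzmb promoter rose at rest from 528, 533.5, 528 and 447 to 898, 758.5 and 836 (0.71 ± 0.09, limma adjusted p = 4.61e-07), a difference of −1.17 ± 0.13 (limma adjusted p = 2.16e-08). With PGE2 the stimulated level of Gzmb, 1027 ± 119, was still above the resting level with PGE2, 831 ± 69.7. The Ccr2 promoter, which rose with stimulation, read 1006 ± 115 and 814 ± 96.2 at rest (−0.30 ± 0.12, limma adjusted p = 0.0741), a difference of 1.23 ± 0.16 (limma adjusted p = 3.97e-07). Its resting fall was called after median re-centring (limma adjusted p = 0.0307), with only the groups compared (0.0226) and with the replicate block (0.0465). The Kit peak rose more with stimulation, by 1.21 against 0.40 at rest (difference 0.81 ± 0.13, limma adjusted p = 8.65e-06), and the Jak1 peak rose by 1.54, against a value of 0.29 at rest (limma adjusted p of the difference 0.000279).

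Short sequence motifs were counted in the 250-base promoter windows that lay in promoter peaks, on both strands, as a description with no test. There were 8451 such windows, 473 of them at rising and 1589 at falling peaks, with a median GC content of 57.6%, 60.8% and, over all, 60.8%. The median count of CpG, the letters CG in a row, was 12, 17 and, over all, 17. TGACG, TGACGTCA, CCGGAAGT and GGGCGG each contain CpG, and whether their shares differ beyond this was not tested. The short cAMP response element TGACG was present in 18% of rising, 31.5% of falling and 28.1% of all windows, and the full element TGACGTCA, which contains it, in 1.48%, 3.71% and 2.85%. The ETS motif CCGGAAGT was found in 2.75%, 7.74% and 6.35%. Rising windows held RUNX (TGTGGTT) more often, in 6.34% against 3.34% of falling and 3.14% of all, and AP-1 (TGANTCA) in 7.19%, 5.03% and 3.79%. Shares of NFAT (GGAAAA; 19.2%, 17.8% and 17.6%), STAT (TTCNNNGAA; 4.65%, 6.48% and 5.64%) and T-box letters (TCACACC; 2.33%, 3.34% and 2.76%) lay closer together, and KLF and SP letters (GGGCGG) were in 52.4%, 62.1% and 63.2%. Of the promoters printed above, those of Ifng and Cish, which fell, hold TGACG, and the Tigit promoter, which rose, holds RUNX, as does that of Xcl1, which fell.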

How the data were processed

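The submitters' processing notes name the mouse build mm10 and the tools Trimmomatic (version 0.39), Bowtie2 (version 2.4.1), MACS2 (version 2.2.7.1) and DESeq2 (no version), which trim, align, call peaks and normalise. The authors deposited 1 table of signal for 30 libraries, in which reads per peak are divided by DESeq2 size factors, 1 factor a library as the values show. How duplicate reads and the offset of the transposase cut were handled was not given in these sources, and both can move low values. In every library 100% of values were whole multiples of what 1 read is worth, within a tolerance of 0.05 reads, so edgeR and DESeq2 could be run on recovered reads as alternatives.

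The main test was limma 3.58.1 (R 4.3.3) on log2(normalised count + 1) with an intensity trend, a mean for each group over all 30 libraries, a mean of at least 10 and Benjamini-Hochberg adjustment, two-sided, at 0.05. edgeR 4.0.16 called 7981 rises and 8080 falls in stimulated WT cells, and DESeq2 1.42.0 called 8021 and 8236. Differences between genotypes and between states were contrasts of the same fit. Adjusted p-values in the text are from limma unless edgeR is named. The procedure was tested on simulated data.

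Samples were grouped by GEO's labels. Same-numbered stimulated WT libraries deviated together (correlations 0.21, 0.12, 0.13 and 0.12), so the numbers were taken as pairs. The main fit had no replicate block, so its SE and adjusted p-values do not use the pairs. A fit with the block was an alternative. At rest the correlations were 0.08, 0.05 and 0.05, and the numbers were not taken as pairs, although each library matched its own number best.

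The comparison, the gene lists and the alternatives were chosen with earlier results of these data known. Peaks were named by a rule: the 12 largest rises and falls without overlap, the peaks with the smallest p per list and direction, every peak of 17 core genes, the largest differences between settings, and the genes with most called peaks. The 39 peaks given by library fall within that rule and were picked by role after their values were seen, as were the genes whose counts of peaks are given. Each peak's gene and class (promoter, exon, intron or, for those the table calls intergenic, distal) are those of the authors' deposited table, and the gene named need not be the target. A few genes of the lists are not reported here.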

Additional observations from a re-analysis of the deposited data

Results flagged for a closer look

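Within the 39 peaks described by library, the highest or lowest library of a group of 4 stood far from the others in 6 of 78 groups, where chance gives about 1 in 20 groups, or 3.9. At the Ccl4 promoter untreated replicate 1 read 2177 against 1623 to 1671 in the others, and at the Csf2 promoter PGE2 replicate 1 read 500.1 against 433.9 to 435.1. Untreated replicate 2 stood apart at 3 peaks. It was high at the Klrb1c distal peak (227.7 against 150.1 to 161.9) and low at the promoters of Pdcd1 (104.4 against 142.3 to 145.1) and Nr4a1 (314.4 against 397.7 to 414.6). At the Pdcd1 distal peak untreated replicate 3 was low, at 111 against 174.8 to 182.2. Each of these peaks stayed called in limma when any 1 library was left out.

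The response to PGE2 differed between settings by a test of the difference itself. Over all peaks tested, limma called 7690 differences between stimulated WT and stimulated KO cells (3915 more positive in WT and 3775 more negative) and 9757 between stimulated and resting WT cells (4088 and 5669). Of the 39 peaks, picked after their values were seen, 37 differed between genotypes and 31 between states, against 20% and 25.3% of all peaks tested. At 3 peaks the response was called with opposite signs in the 2 states: the Csf2 promoter (difference −1.21), the Gzmb promoter (−1.17) and the Gzmb exon peak (−2.76). The resting rise of the Gzmb exon peak, from a mean of 33.9 to 57.4, was not called without PGE2 replicate 2 or untreated replicate 4 of the resting cells or after quantile normalisation, where the limma adjusted p reached 0.17, so at that peak the opposite sign rests on those libraries.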

How the results depend on the processing

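All 39 peaks described by library kept their direction and their call in stimulated WT cells under 18 other settings each (702 values). Of the 240 called peaks named by rule, 226 stayed called in every setting, 14 were lost in at least 1, and 0 changed sign. Counts of rises in stimulated WT cells ran from 7158 to 9299 and of falls from 7122 to 9986, both highest with the replicate block (9299 and 9986), and leaving out 1 library gave 6713 to 7381 and 6977 to 7535. Among the peaks named by rule, the block lost 0 calls in stimulated WT cells and added 9, lost 0 and added 18 for the difference between WT and KO (those of the Gzmb and Pdcd1 promoters among them), lost 0 and added 22 for that between stimulated and resting WT, lost 6 and added 13 in resting WT, and ended the single call in the KO. It moved no other count by over 1.5 times. That call in stimulated KO cells became 0 with a pseudocount of 8, with only the groups compared, with the replicate block, without the trend and in edgeR, and leaving out 1 library gave 0 to 4. In resting WT cells falls numbered 2365 after median re-centring, and 826 (without PGE2 replicate 3) to 1365 with 1 library left out. With promoter windows of 300 bases, chosen after seeing the data, TGACG was in 22.8% of rising and 36.7% of falling windows, GGAAAA in 20.4% and CCGGAAGT in 10.4% of falling ones; longer windows hold more letters. Motif counts around peak centres were not run, as no genome sequence was used here. Apart from these constructions, the cause of each change was not tested. With 4 libraries a group, differences within the spread of replicates were not resolved.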

Other observations

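At the immunoglobulin heavy chain locus, a set of peaks chosen after values were seen, rises outnumbered falls in stimulated WT cells. Of 88 peaks at chr12:113256204-116009954 (mm10), 47 rose (53.4%) and 2 fell, with differences from −1.41 to 1.46 and a median of 0.38 against −0.01 over all peaks. Their summed level was 15640, 15578, 14477 and 15144 in the untreated libraries and 19168, 18158, 18662 and 18286 with PGE2, so the groups did not overlap. In resting WT cells the sum was higher without PGE2 (22277 ± 680, SD, n = 4) than with it (18989 ± 1084, SD, n = 3), and the median difference was −0.14. In stimulated KO cells the sums were 15368 ± 906 and 16182 ± 1338 (SD, n = 4 each), with a median of 0.08. Promoters of the B cell markers Cr2 and Ebf1 summed to 87 to 120 untreated and 85 to 103 with PGE2 in stimulated WT cells, and Cd79a, Cd79b and Ms4a1 had no peak. Of the other B cell markers with a peak, Pax5 rose at 2 of 3, while the single peaks of Blk and Fcer2a fell. The part of B cells in the locus-wide values was not tested.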
